A study of Mus musculus with 32 samples.

Results

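Potassium channels let potassium ions leave or enter a cell and so set its membrane potential, and the genes that encode them form one of the largest ion channel groups of the mouse genome. All protein-coding genes named Kcn, then letters, then digits, were taken, with Kcnq1 left out, which gave 91 of 21883 protein-coding genes on 19 chromosomes. They comprised 39 voltage-gated pore subunits (Kcna, Kcnb, Kcnc, Kcnd, Kcnf, Kcng, Kcnh, Kcnq, Kcns and Kcnv), 15 inward rectifiers (Kcnj) and 14 tandem-pore leak channels (Kcnk). A further 8 were grouped as channels opened by calcium or sodium (Kcnma, Kcnn, Kcnt and Kcnu), where Kcnu1 was placed by family and not by what opens it. Another 15 encoded accessory subunits (Kcnab, Kcne, Kcnip and Kcnmb).

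By its title, the study asks how a mutation of Asxl1 alters the differentiation of myeloproliferative cells that carry an activated G-CSF receptor, CSF3R. CUT&Tag, in which an antibody guides a transposase to release DNA next to a histone mark, was run for H3K27me3, H2AK119ub and H3K4me1 in HoxB8 cells, a mouse bone marrow line kept immature by HoxB8 while estrogen is present. All cells carried 1 of 2 guides and 1 of 2 pMICH vectors, and all had been without estrogen for 48 h. The 4 genotypes were double (guide sgRNA Asxl1 B2 with pMICH-CSF3R-T618I, n = 2 libraries per mark), CSF3R T618I (non-targeting guide with pMICH-CSF3R-T618I, n = 3), Asxl1 guide (sgRNA Asxl1 B2 with pMICH-Empty, n = 3) and control (non-targeting guide with pMICH-Empty, n = 2). The labels name a single Asxl1 guide, and do not say whether the cells of a genotype were a clone or whether its libraries came from separate cultures, so p-values measure the spread between these libraries, which may be technical.

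Most potassium channels are known from nerve and muscle, where they end action potentials or hold the resting potential, and a few, such as Kcna3, Kcnn4, Kcnk6 and Kcnk13, are known from blood and immune cells. In cells that do not use them, developmental and nerve genes with CpG-rich start sites are typical targets of the Polycomb complexes, of which PRC2 writes H3K27me3 and PRC1 writes H2AK119ub. Asxl1 works with Bap1 in removing ubiquitin from H2A. H3K4me1 marks enhancers and the flanks of active start sites.

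The start-site sequences of 6 members are shown as examples, picked after their values were seen: 5 were called in a comparison below, and Kcnj2 is shown because its promoter met the limit given below for none of the 3 marks. Each is the 250 bases before the RefSeq start on GRCm38.p6 (the coordinates of mm10), written 5′ to 3′ on the strand of the gene, with every CG in capitals. Kcna3 lies on the plus strand at chr3:107035912-107036161, Kcnk12 on the minus strand at chr17:87797995-87798244, and Kcnc1 on the plus strand at chr7:46396218-46396467. Kcnk4 lies on the minus strand at chr19:6934516-6934765, Kcnip3 on the minus strand at chr2:127522095-127522344, and Kcnj2 on the plus strand at chr11:111065914-111066163.
Kcna3: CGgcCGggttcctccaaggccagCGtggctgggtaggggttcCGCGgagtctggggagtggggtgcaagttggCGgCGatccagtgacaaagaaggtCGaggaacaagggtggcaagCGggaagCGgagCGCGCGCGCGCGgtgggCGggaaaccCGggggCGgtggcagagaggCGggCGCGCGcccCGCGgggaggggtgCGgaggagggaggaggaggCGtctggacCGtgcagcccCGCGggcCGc
Kcnk12: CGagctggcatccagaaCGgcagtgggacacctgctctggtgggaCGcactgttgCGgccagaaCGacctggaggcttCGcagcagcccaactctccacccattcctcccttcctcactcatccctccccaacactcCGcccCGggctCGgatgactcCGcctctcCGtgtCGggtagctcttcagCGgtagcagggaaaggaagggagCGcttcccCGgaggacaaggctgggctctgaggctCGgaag
Kcnc1: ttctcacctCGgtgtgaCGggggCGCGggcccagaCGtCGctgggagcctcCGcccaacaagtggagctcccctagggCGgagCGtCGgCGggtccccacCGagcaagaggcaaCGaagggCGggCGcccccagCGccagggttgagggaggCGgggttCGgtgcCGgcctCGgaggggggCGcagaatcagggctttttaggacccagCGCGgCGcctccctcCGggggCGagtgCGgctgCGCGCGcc
Kcnk4: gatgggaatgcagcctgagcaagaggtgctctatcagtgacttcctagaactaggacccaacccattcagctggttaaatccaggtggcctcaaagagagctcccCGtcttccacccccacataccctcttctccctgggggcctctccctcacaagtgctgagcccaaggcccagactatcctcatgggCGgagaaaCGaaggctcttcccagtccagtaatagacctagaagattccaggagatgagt
Kcnip3: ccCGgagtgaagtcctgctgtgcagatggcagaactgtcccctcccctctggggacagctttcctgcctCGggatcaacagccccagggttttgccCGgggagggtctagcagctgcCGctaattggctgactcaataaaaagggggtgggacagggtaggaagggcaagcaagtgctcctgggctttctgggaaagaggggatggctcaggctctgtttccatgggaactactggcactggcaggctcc
Kcnj2: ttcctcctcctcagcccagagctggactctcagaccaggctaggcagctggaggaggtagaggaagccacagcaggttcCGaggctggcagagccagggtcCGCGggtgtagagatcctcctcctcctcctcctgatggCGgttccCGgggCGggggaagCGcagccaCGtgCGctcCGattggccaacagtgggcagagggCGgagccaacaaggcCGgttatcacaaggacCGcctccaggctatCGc

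These sequences differed widely in CG, which reads the same on both strands and was the only motif counted. Kcna3, a voltage-gated channel of lymphocytes, had 31 CG and Kcnc1, a channel of fast-firing neurons, had 30, numbers that 6.19% and 7.09% of all 17491 RefSeq promoters matched or passed. Kcnk12, a tandem-pore subunit, had 16 CG and Kcnj2, an inward rectifier of muscle, had 14. Kcnip3, a calcium-binding partner of voltage-gated channels, had 4, and Kcnk4, a leak channel opened by membrane stretch, had 3. The median over all promoters was 10 CG, and 92.6% held at least 1.

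The promoters of Kcnc1 and Kcnk12 lay in peaks of both Polycomb marks in most libraries. At least 150 of the 300 promoter bases of Kcnc1 lay in H3K27me3 peaks in 2 of 2 double, 3 of 3 CSF3R T618I, 1 of 3 Asxl1 guide and 2 of 2 control libraries, and in H2AK119ub peaks in all 10. Kcnk12 met that limit for H3K27me3 in 2 double, 3 CSF3R T618I, 3 Asxl1 guide and 1 control libraries, and for H2AK119ub in all 10. Kcna3, in contrast to these, had its promoter in H2AK119ub peaks in 2 double, 3 CSF3R T618I, 3 Asxl1 guide and 1 control libraries, but in an H3K27me3 peak in only 1 library, of CSF3R T618I cells. The promoter of Kcnk4 was in H3K27me3 peaks in 0 double, 3 CSF3R T618I, 1 Asxl1 guide and 1 control libraries. Kcnip3 was the only one of the 67 members with a RefSeq promoter whose promoter met the limit for H3K4me1, in 0 double, 1 CSF3R T618I, 3 Asxl1 guide and 2 control libraries, and it met it for neither Polycomb mark. The Kcnj2 promoter met it for no mark in any library. Kcna2 shows the limit of a window at the gene's outer end: its RefSeq promoter lies 10684 bases inside the gene and was in H3K27me3 peaks in 10 of 10 libraries, while its gene end had none.

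Of the 67 promoters, 21 (31.3%) were CpG-rich (at least 50% G and C and at least 0.6 of the CG that base composition predicts), against 45.8% of all promoters. Among members tested for H3K27me3 the count was 15 of 33 (45.5%), and among members not tested it was 6 of 34 (17.6%). Over all protein-coding genes the same shares were 57.3% and 43.6%.

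Values below are the percent of a window that lay in peaks. The gene end is a 10 kb window, 5 kb to each side of the end of the gene that had the higher mean over all 30 libraries, and the gene body runs from one end of the gene to the other. By strand, the gene end used was the outer end on the start side for 53 members and on the 3′ side for 14. For 24 the strand was not known from the tables used. The outer end need not be the RefSeq start: 51 of 67 RefSeq promoters started within 500 bases of it. No member shared its window with another, but 19 windows held part of another protein-coding gene. Gene ends at 20% or more in at least 2 libraries of a mark, and gene bodies at 10% or more, were tested with limma over all protein-coding genes, and a gene was called at an adjusted p under 0.05. Member counts at an unadjusted p under 0.05 (limma) pass a looser limit. They are not comparable with the shares of all tested genes called. In bulk libraries, fewer cells with a mark and less of it per cell cannot be told apart.

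The H3K27me3 peak lists stood apart in total length: 14.2 to 19.2 Mb in double, 31.3 to 42.2 Mb in CSF3R T618I, 4.73 to 53.0 Mb in Asxl1 guide and 15.9 to 22.7 Mb in control libraries. The longest (53.0 Mb) and the shortest (4.73 Mb) were Asxl1 guide replicates 2 and 1 of the same genotype, and all H3K27me3 comparisons share the estimate of spread that includes them. H2AK119ub lists covered 22.6 to 39.1 Mb in double and 18.8 to 28.7 Mb in CSF3R T618I libraries. They covered 11.8 to 16.7 Mb in Asxl1 guide and 19.9 to 21.2 Mb in control libraries. H3K4me1 lists covered 26.6 to 47.2 Mb, and read depth is unknown. H3K4me1 was present at the gene ends of 9 or 10 of 10 myeloid progenitor markers in each genotype and at 0 of 5 T cell, 0 or 1 of 5 B cell, 0 to 2 of 5 erythroid and 1 or 2 of 5 neuronal markers. The neuronal Syp had it over 16% to 56% of the gene end in 10 of 10 libraries and Tubb3 in 7. The files hold only peak positions, so the edit of Asxl1 could not be checked in them. The Asxl1 gene end had no Polycomb peak, and H3K4me1 peaks in 4 libraries over at most 11.3%.

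H3K27me3 was widespread over the family. At least 1 library had an H3K27me3 peak at the gene end of 71 members, and 46 were tested. A gene end at 20% or more was found for 22 to 31 members in double, 42 to 44 in CSF3R T618I, 8 to 48 in Asxl1 guide and 33 to 41 in control libraries, which is 29.1%, 46.9%, 30.4% and 40.7% of the members on average. Over all protein-coding genes the same averages were 8.03%, 15.8%, 8.44% and 10.5%. The 91 members had a mean of 15.3% of the gene end in H3K27me3 peaks in double, 28.4% in CSF3R T618I, 16.7% in Asxl1 guide and 19.97% in control libraries.

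The marked members were spread unequally over the roles. On average 14 of 39 voltage-gated pore subunits were at 20% or more in double cells, 22.3 in CSF3R T618I cells, 15.7 in Asxl1 guide cells and 20 in control cells. Tandem-pore channels gave 4.5, 9, 5 and 8 of 14 in the same order of genotypes, and inward rectifiers 5.5, 6, 4 and 5.5 of 15. The group of channels opened by calcium or sodium, with Kcnu1 included, gave 1.5, 3.33, 2.33 and 2.5 of 8. Accessory subunits had the fewest, 1, 2, 0.667 and 1 of 15. Only Kcnk2, Kcnj16 and Kcnd1 had no peak of any mark at either end or in the body in the 30 libraries.

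**Figure D1:**
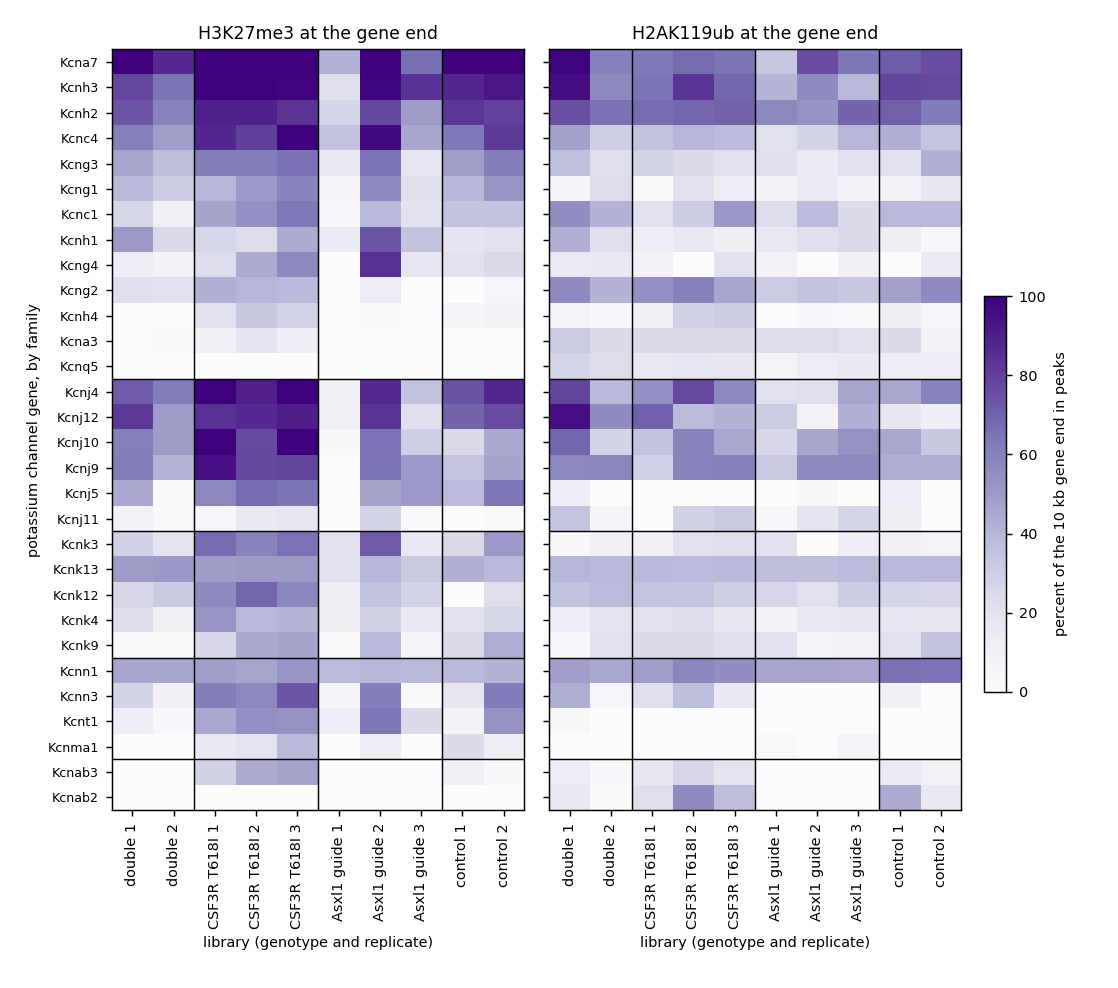
Percent of the gene end in H3K27me3 (left) and H2AK119ub (right) peaks for the 30 members that were tested for either mark and are named in the text, by library (columns) and by role (groups of rows); colour runs from 0% to 100%. The 3 CSF3R T618I libraries are dark over most H3K27me3 rows, while the Asxl1 guide libraries range from the palest (replicate 1) to one as dark as CSF3R T618I (replicate 2).

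Among the most covered members were Kcna7 and Kcnh3. Kcna7, a voltage-gated channel of muscle, had 100% and 86.5% of the window in H3K27me3 peaks in double libraries, 100% in all 3 CSF3R T618I libraries, 41.2%, 100% and 66.5% in Asxl1 guide libraries and 100% in both control libraries. The window lies at its 3′ end and holds part of Ntf5. Kcnh3, a channel of forebrain neurons, had 78.0% and 64.5% in double, 100%, 99.7% and 99.2% in CSF3R T618I, 22.5%, 98.7% and 84.2% in Asxl1 guide and 87.5% and 92.5% in control libraries. Double libraries of Kcnh3 lay below every CSF3R T618I and control library, and the Asxl1 guide libraries spanned both. Others among the 8 most covered were the inward rectifiers Kcnj4, Kcnj12 and Kcnj10 and the voltage-gated Kcnh2 and Kcnc4, with means over the 10 libraries from 55.6% to 71.6%. None of the 8 was called for H3K27me3 at the gene end in any comparison.

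The first comparison asks what the Asxl1 guide did to H3K27me3 in cells that carry CSF3R T618I. In double cells H3K27me3 fell at the gene end of 7 members relative to CSF3R T618I cells, and it rose at none. Among them were the voltage-gated Kcnc1 and Kcnh4, the tandem-pore Kcnk4 and Kcnk12 and the accessory subunit Kcnab3. The 7 were 15.2% of the 46 tested members, below the 22.8% of all tested genes that fell, so the family was not called more often than other genes. Of the 46 differences, 44 were below 0 (95.7%, beside 96.1% of all tested genes), with a median of -27.3 percentage points against -23.9 over all tested genes. Since a gene end could pass the filter through its CSF3R T618I libraries alone, these counts and medians are descriptions. Kcnab3 and Kcnh4 below passed it through CSF3R T618I libraries alone, so their p-values carry the same limit, and with no filter their adjusted p was 0.00685 and 0.00406.

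Kcnab3 (chr11:69326258-69333041), a beta subunit of voltage-gated channels, had H3K27me3 peaks in CSF3R T618I but not in double libraries. Its gene end had no H3K27me3 peak in either double library and 28.5%, 44.1% and 47.1% in CSF3R T618I libraries, against none in any Asxl1 guide library and 10.0% and 3.5% in control libraries. Every CSF3R T618I library was above every other library. The difference of double from CSF3R T618I was -39.9 points (SE 7.71, limma, adjusted p = 0.0152). The window also holds parts of Cntrob and Trappc1, and the strand of Kcnab3 was not known from the tables used.

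Among the voltage-gated subunits, Kcnh4 (chr11:100740378-100760115), a brain channel, likewise had no H3K27me3 peak in either double library. It had 21.0%, 32.5% and 28.0% in CSF3R T618I libraries. The Asxl1 guide libraries had 0%, 2% and 0% and the control libraries 6.0% and 7.5% at Kcnh4, so CSF3R T618I stood above all other libraries. The Kcnh4 difference between double and CSF3R T618I was -27.2 points (SE 6.86, limma, adjusted p = 0.0285), in a window that also holds part of Hcrt.

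Kcnc1 had 26.5% and 10.5% in double, 46.5%, 54.0% and 63.0% in CSF3R T618I, 4.5%, 38.5% and 20% in Asxl1 guide and 35.0% and 34.5% in control libraries. Double and CSF3R T618I libraries of Kcnc1 did not overlap, with a difference of -36.0 points (SE 10.6, limma, adjusted p = 0.0390).

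The tandem-pore channels Kcnk12 and Kcnk4 were also lower in double. Kcnk12 had 25.5% and 31.5% in double, 56.0%, 69.0% and 58.0% in CSF3R T618I, 11.5%, 35.0% and 28.0% in Asxl1 guide and 0% and 22.5% in control libraries. Kcnk4 had 23.5% and 9.5% in double, 52.5%, 39.0% and 40.5% in CSF3R T618I, 11.0%, 28.5% and 16% in Asxl1 guide and 20.5% and 26.5% in control libraries. For both genes the CSF3R T618I libraries lay above all other libraries. Double differed from CSF3R T618I by -32.5 points at Kcnk12 (SE 9.80, limma, adjusted p = 0.0423) and by -27.5 points at Kcnk4 (SE 8.57, limma, adjusted p = 0.0463), where the window holds part of Gpr137.

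**Figure D2:**
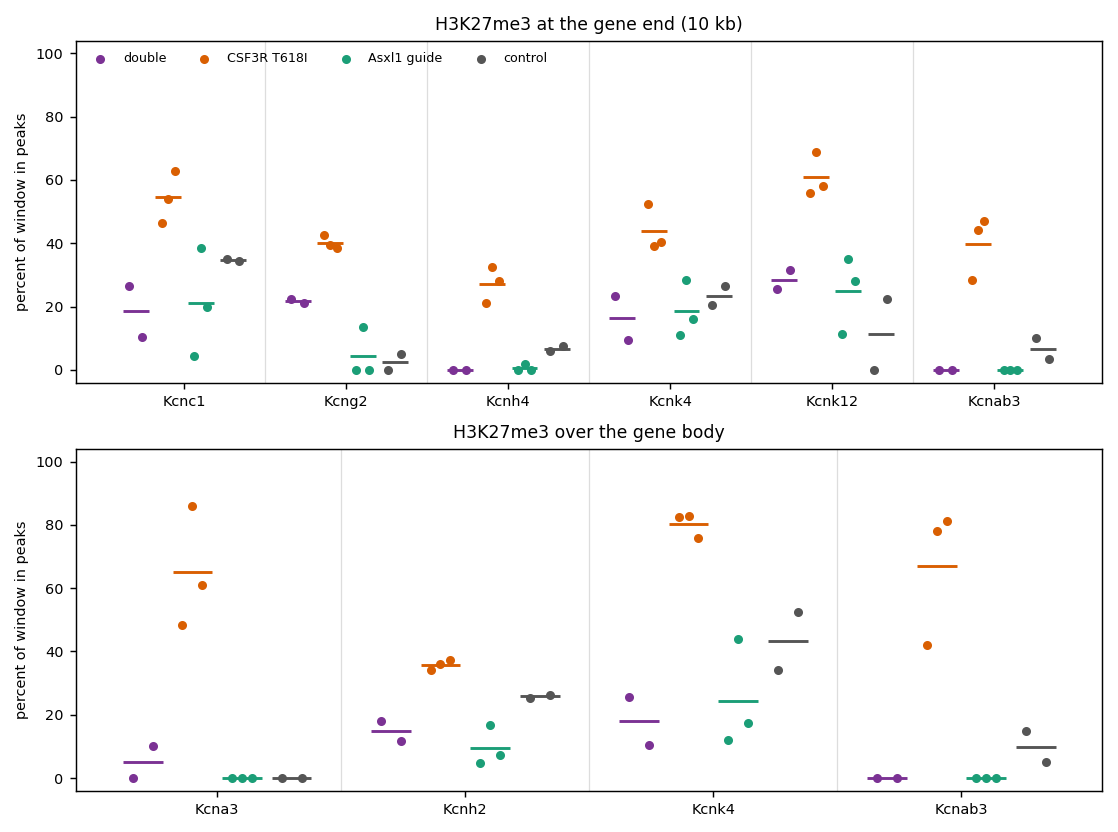
Percent of the gene end (upper panels) or gene body (lower panels) in H3K27me3 peaks for called members described in the text; dots are libraries and bars are means, with double, CSF3R T618I, Asxl1 guide and control cells from left to right. At Kcnab3 the 3 CSF3R T618I libraries sit between 28.5% and 47.1% of the gene end and both double libraries at 0%.

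These calls depended on the libraries used. All 7 were called among the 30 members called without Asxl1 guide replicate 2 (64.7% of all tested genes then lower) and among the 19 called without Asxl1 guide replicate 1 (42.7%); 2 members were called without Asxl1 guide replicate 3, CSF3R T618I replicate 1 or either control library (9.29% to 10.7% of all tested genes), and 0 without CSF3R T618I replicate 2 or 3 or either double library. With total peak length as a covariate 11 members were called, 1 of them higher in double. In a 4 kb window the calls of Kcnc1 (limma, adjusted p = 0.0998), Kcnk4 (0.181) and Kcnk12 (0.252) were lost, and with no filter they were 0.0681, 0.0520 and 0.0655 in that order.

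Over the gene body, 4 of 32 tested members fell in double cells relative to CSF3R T618I cells (12.5%, against 7.03% of all tested genes), and all 32 differences were below 0, as were 93.7% of those of all tested genes. Kcna3 is a short gene, and its body had 0% and 10.2% in H3K27me3 peaks in double, 48.3%, 85.8% and 61.0% in CSF3R T618I, and 0% in all Asxl1 guide and control libraries. Only the CSF3R T618I libraries and 1 double library had a peak there, and the difference was -59.9 points (limma, adjusted p = 0.0151), or -10.2 points (adjusted p = 0.0758) with 5 kb added to each side. The Kcnab3 body had 0% in both double libraries and 42.0%, 78.1% and 81.1% in CSF3R T618I libraries, against 0% in Asxl1 guide and 14.7% and 5.2% in control libraries. That difference of double from CSF3R T618I at Kcnab3 was -67.1 points (limma, adjusted p = 0.0151). Both bodies passed the filter through CSF3R T618I libraries alone, so these 2 p-values carry the limit given above for gene ends. Both calls were kept with no filter.

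The Kcnk4 body had 25.5% and 10.3% in double, 82.7%, 82.8% and 75.8% in CSF3R T618I, 11.9%, 43.9% and 17.3% in Asxl1 guide and 34.2% and 52.6% in control libraries, a difference of -62.5 points between double and CSF3R T618I (SE 10.4, limma, adjusted p = 0.0155). The body of Kcnh2, the channel that repolarises heart muscle and a member also known from blood cells, had 18.2% and 11.6% in double, 34.2%, 35.9% and 37.3% in CSF3R T618I, 4.6%, 16.9% and 7.4% in Asxl1 guide and 25.3% and 26.3% in control libraries. Double and CSF3R T618I libraries were fully separate at both genes, and Kcnh2 differed by -20.9 points (SE 4.67, limma, adjusted p = 0.0399). The 4 calls became 14 without Asxl1 guide replicate 2 (42.4% of all tested genes then lower), 6 without Asxl1 guide replicate 1 (14.4%) or CSF3R T618I replicate 1 (9.82%), 3 without Asxl1 guide replicate 3 (3.54%) or either control library (4.44%), 1 without CSF3R T618I replicate 2 (2.55%), and 0 without CSF3R T618I replicate 3 or either double library.

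CSF3R T618I was also compared with control, where H3K27me3 rose at the gene end of Kcng2 and Kcnk12. These were 2 of 46 tested members, beside 2.85% of all tested genes called higher, and none fell. Kcng2, a silent subunit that modifies other voltage-gated channels, had 42.5%, 39.5% and 38.5% in CSF3R T618I and 0% and 5.0% in control libraries, against 22.5% and 21.0% in double and 0%, 13.5% and 0% in Asxl1 guide libraries. The CSF3R T618I libraries were close together and above the rest, and double libraries lay between them and the others. CSF3R T618I exceeded control by 37.7 points at Kcng2 (SE 7.29, limma, adjusted p = 0.0299). Kcnk12, with the values given above, differed by 49.8 points (SE 9.80, limma, adjusted p = 0.0299).

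No other member passed the test. Of the 46 differences between CSF3R T618I and control 44 were above 0 (95.7%, beside 95.6% of all tested genes), with a median of 13.6 points against 15.3 over all tested genes, and 7 had an unadjusted p under 0.05. Kcnj10, an inward rectifier of glia, had 100%, 77.0% and 100% in CSF3R T618I and 25.0% and 44.5% in control libraries, which did not overlap (57.6 points, limma, adjusted p = 0.0712). Kcnj9, a G-protein-gated inward rectifier, had 95.2%, 77.7% and 78.2% in CSF3R T618I and 34.0% and 46.5% in control libraries (43.5 points, limma, adjusted p = 0.156). Both were called without Asxl1 guide replicate 2, as was Kcng2.

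Over the gene body CSF3R T618I exceeded control at Kcna3 by 65.0 points (SE 9.71, limma, adjusted p = 0.0237) and at Kcnab3 by 57.1 points (SE 10.8, limma, adjusted p = 0.0457), 2 of 32 tested members, beside 2.04% of all tested genes. The Kcnab3 body differed by as much with no filter and with total peak length as a covariate (57.1 and 56.4 points), but was not called (limma, adjusted p = 0.0611 and 0.0524). The Kcna3 and Kcnab3 bodies reached 10% in at least 2 libraries in CSF3R T618I cells alone, so their p-values here carry the same limit of the filter. The Kcna3 gene had no H3K27me3 peak in either control library or in any of the 3 Asxl1 guide libraries. The 2 calls at the gene end became 10 without Asxl1 guide replicate 2 (30.6% of all tested genes then higher), 5 without Asxl1 guide replicate 1 (7.03%), and 0 without any of the other libraries except CSF3R T618I replicate 1. With 5 kb added to each side of the body, the differences of CSF3R T618I from control were 11.0 points at Kcna3 (limma, adjusted p = 0.130) and 23.1 at Kcnab3 (adjusted p = 0.0675), and neither was called. The 2 calls over the body became 8 without Asxl1 guide replicate 2 (17.8% of all tested genes then higher), 3 without CSF3R T618I replicate 1 (4.91%), 1 without Asxl1 guide replicate 1, CSF3R T618I replicate 2 or either double library (0.472% to 1.81%), and 0 without Asxl1 guide replicate 3, CSF3R T618I replicate 3 or either control library.

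No member passed the test between Asxl1 guide and control for H3K27me3, nor did any other gene (0% called; 1 member at an unadjusted p under 0.05). The lowest differences were at Kcnj4 (-37.5 points, limma, adjusted p = 0.795) and Kcnj12 (-34.5, adjusted p = 0.825), both inward rectifiers, and the highest at Kcnk12 (13.6, adjusted p = 0.871) and Kcnh1 (21.8, adjusted p = 0.871). Kcnj4 shows how far the Asxl1 guide libraries were apart, with 9.0%, 86.5% and 34.9% against 74.5% and 87.5% in control libraries. Without Asxl1 guide replicate 2, whose peak list is the longest, 11 members were called lower in Asxl1 guide cells, beside 22% of all tested genes. Kcnj4 then differed by -59.1 points (limma, adjusted p = 0.0048). The other 10 included Kcnj12, Kcna7, Kcnh2, Kcng3, Kcnc4, Kcng1 and Kcnk9.

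Double cells were called different from neither Asxl1 guide nor control cells at any member. Against Asxl1 guide the differences ran from -25.6 points at Kcnt1 and -24.2 at Kcng4 to 24 at Kcna7 and 27.2 at Kcnj12 (limma, adjusted p = 1 for each), beside 0.0269% of all tested genes called in either direction. Kcnj4 and Kcnj12 were called higher in double without Asxl1 guide replicate 2, beside 1.72% of all tested genes. Against control, 38 of 46 differences were below 0 (82.6%, beside 73.9% of all tested genes), with the lowest at Kcnk9 (-32, limma, adjusted p = 0.513) and Kcnj5 (-27.8, adjusted p = 0.695) and the highest at Kcng2 (19.3, adjusted p = 0.513) and Kcnj10 (20.5, adjusted p = 0.766), and 0.0269% of all tested genes were called. In each of these 2 comparisons 2 members had an unadjusted p under 0.05. The interaction of guide and CSF3R T618I was called at no member and at no other gene, with 3 members at an unadjusted p under 0.05.

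The gene bodies gave no H3K27me3 call in these 4 comparisons either, with limma. Between Asxl1 guide and control the differences ran from -32.9 points at Kcna7 to 20.5 at Kcnj11, an inward rectifier of the pancreas (adjusted p = 1 for both), 2 members had an unadjusted p under 0.05, and 0% of all tested genes were called. Against Asxl1 guide, double ran from -20.02 points at Kcna5 to 32.1 at Kcna7 (limma, adjusted p = 1 for both), with 1 member at an unadjusted p under 0.05 and 0.118% of all tested genes called. Against control, double ran from -25.5 points at Kcnk4 (limma, adjusted p = 0.758) to 17.6 at Kcnj10 (adjusted p = 1), with 0 members at an unadjusted p under 0.05 and 0.0786% of all tested genes called. For the interaction 4 members had an unadjusted p under 0.05 and 0.236% of all tested genes were called. Without Asxl1 guide replicate 2, 3 of 32 members were called lower between Asxl1 guide and control, beside 7.66% of all tested genes, and 1 higher between double and Asxl1 guide, beside 1.18%.

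**Figure D3:**
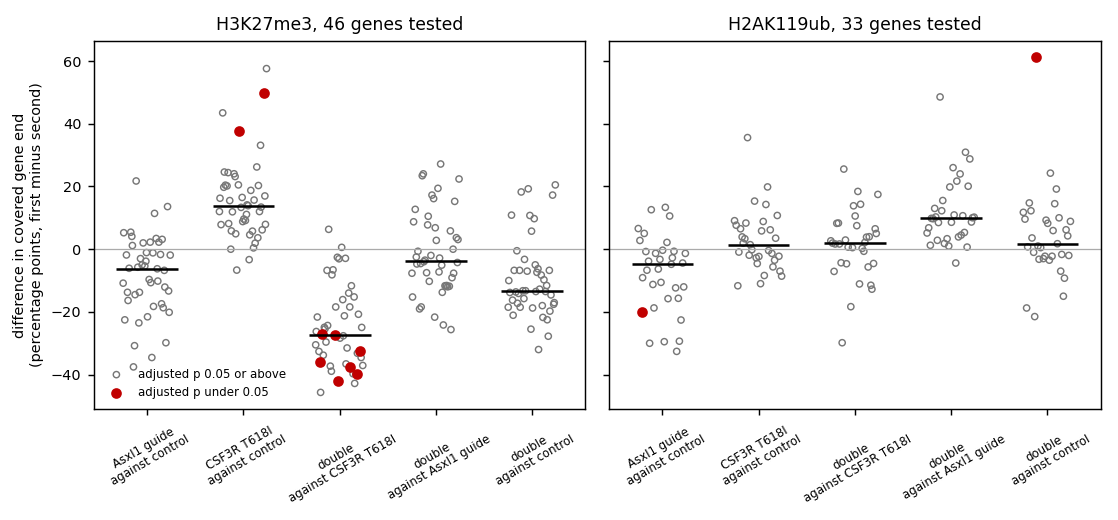
Differences in percent of the gene end in peaks (percentage points) for the members tested for H3K27me3 (46, left) and H2AK119ub (33, right) in 5 comparisons; each dot is a member, red dots have an adjusted p under 0.05 and black bars are medians. H3K27me3 differences between double and CSF3R T618I lie almost wholly below 0, with a median of -27.3 points.

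Peaks at the members were also of different width. The H3K27me3 peaks that touched a member's window averaged 2160 bp in double, 4427 bp in CSF3R T618I, 1924 bp in Asxl1 guide and 2756 bp in control cells, while their mean number was 70, 67, 77.3 and 72. The Asxl1 guide libraries averaged 991, 3197 and 1583 bp. Over all H3K27me3 peaks, library averages were 766 to 1134 bp in double and 1797 to 2051 bp in CSF3R T618I cells. They were 780 to 1168 bp in Asxl1 guide and 1563 to 1590 bp in control cells. Peaks were thus widest in CSF3R T618I cells over the whole lists too. Averaged over the 67 members with a known start site, H3K27me3 was highest just inside the gene, where peaks covered 34.5% of the highest bin in double, 47.4% in CSF3R T618I, 31.8% in Asxl1 guide and 38.7% in control cells. Over the 5 kb inside the gene it covered 20.7%, 35.7%, 20.4% and 25.2%, and over the 5 kb before the start 8.93%, 17.3%, 10.1% and 11.5%, in the same order. The highest 500 bp bin was centred 0.25 kb inside the start in double, Asxl1 guide and control cells and 1.25 kb inside in CSF3R T618I cells.

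**Figure D4:**
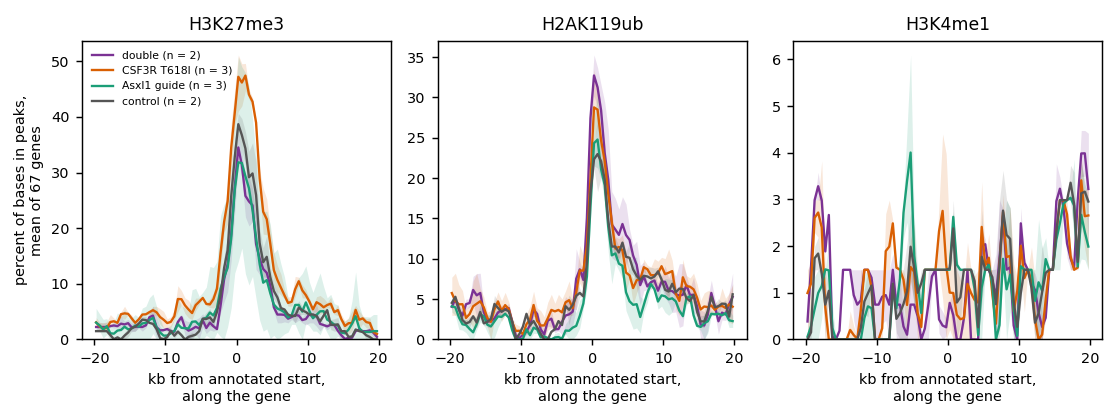
Percent of each 500 bp bin in peaks of each mark, averaged over the 67 members with a known start site, from 20 kb before to 20 kb after the start; lines are means over libraries and bands run from the lowest to the highest library. The H3K27me3 line of CSF3R T618I cells is the highest and widest, at 47.4% in its highest bin against 34.5% in double cells.

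H2AK119ub lay at many of the same genes, with peaks at member windows of 1811 bp on average in double, 1832 bp in CSF3R T618I, 1540 bp in Asxl1 guide and 1864 bp in control cells. In CSF3R T618I and control cells every library average lay below those of H3K27me3 peaks. Double libraries overlapped, with 1952 and 1670 bp against 2541 and 1779 bp for H3K27me3. Asxl1 guide libraries had 1247, 1742 and 1631 bp against 991, 3197 and 1583 bp. H2AK119ub was found at the gene end of 70 members in at least 1 library, and 33 were tested, of which 29 were also tested for H3K27me3. The 4 tested for H2AK119ub alone were Kcnq5, Kcna3, Kcnab2 and Kcnj11. A gene end at 20% or more was found for 25 to 29 members in double, 22 to 30 in CSF3R T618I, 17 to 23 in Asxl1 guide and 20 to 21 in control libraries. The members averaged 14.9%, 14.0%, 9.68% and 12.5% of the gene end in H2AK119ub peaks in the same order. Of all 21883 protein-coding genes, 3230 were tested for this mark at the gene end. Total list length also differed by genotype, as given above, and whether these counts and means follow it was not tested. By genotype means, 19 members had both Polycomb marks at 20% or more in double cells, 24 in CSF3R T618I, 16 in Asxl1 guide and 17 in control cells, and H3K27me3 alone was found at 8, 19, 19 and 19. For these counts, and the H2AK119ub counts above, shares of all genes are not given here. No excess in the family is read from them. The 2 marks' means correlated over the 91 members, which share libraries and windows, with Spearman's rho of 0.81, 0.70, 0.76 and 0.73.

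H2AK119ub was even over the libraries at Kcnk13, a tandem-pore channel of microglia and macrophages. It covered 39.5% and 38.5% of the Kcnk13 gene end in double, 38.5%, 38.0% and 38.5% in CSF3R T618I, 37.0%, 36.5% and 38.0% in Asxl1 guide and 38.5% in both control libraries. H3K27me3 at Kcnk13 was 49.5% and 51.0% in double, 49.0%, 50% and 50% in CSF3R T618I, 21.0%, 39.5% and 32% in Asxl1 guide and 42.5% and 38.5% in control libraries. The lowest 2 H3K27me3 values there were of Asxl1 guide libraries, and no comparison of Kcnk13 was called.

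The Asxl1 guide was compared with control for H2AK119ub, the mark that Asxl1 and Bap1 remove, and 1 of 33 tested members fell, Kcnn1 (chr8:70843158-70865691), a small-conductance channel opened by calcium. It was 3.03% of the tested members, beside 7.43% of all tested genes, and 7 members had an unadjusted p under 0.05. The Kcnn1 gene end had 45.5%, 46.0% and 45.0% in Asxl1 guide and 66.0% and 65.0% in control libraries, against 48.5% and 45.0% in double and 48.5%, 58.0% and 55.0% in CSF3R T618I libraries. Control libraries were above all others, and the Asxl1 guide libraries differed by at most 1 point among themselves. The difference was -20 points (SE 4.48, limma, adjusted p = 0.0332). Part of Ccdc124 and an IgG peak over 6% of the window lie there. With total peak length as a covariate it was -16.2 points (limma, adjusted p = 0.166). In a 4 kb window the Kcnn1 difference was -0.208 points (limma, adjusted p = 1), and with peaks that overlap IgG peaks removed the gene end was no longer tested.

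Over the Kcnn1 body the Asxl1 guide libraries had 26.4%, 28.8% and 33.7% and the control libraries 55.7% and 64.3%, a difference of -30.4 points (SE 4.90, limma, adjusted p = 0.0160). The Kcnk4 body had 10.3%, 16.3% and 18.4% in Asxl1 guide and 30.2% and 43.3% in control libraries, a difference of -21.7 points (SE 5.01, limma, adjusted p = 0.0494). Neither gene's groups overlapped, and these 2 of 28 tested bodies (7.14%) stand beside 5.86% of all tested genes. Kcnn1 at the gene end was no longer called without any 1 of the 3 Asxl1 guide or 2 control libraries (adjusted p up to 0.153), and over its body without Asxl1 guide replicate 1 or 2 or control replicate 2 (up to 0.0940). Kcnk4 over the body stayed called only without control replicate 1, with adjusted p up to 0.224 otherwise, and it was lost with no filter (0.131) and with total peak length as a covariate (0.198).

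In double cells H2AK119ub fell over the Kcnk4 body relative to CSF3R T618I cells. It covered 14.1% and 18.4% in double and 46.5%, 53.6% and 43.3% in CSF3R T618I libraries, against the Asxl1 guide and control values just given. Double and Asxl1 guide libraries of Kcnk4 overlapped, and both lay below all CSF3R T618I and control libraries. The difference between double and CSF3R T618I was -31.5 points (SE 5.01, limma, adjusted p = 0.0123). It was 1 of 28 tested members, beside 4.57% of all tested genes, and was called in each fit that left out 1 library, with adjusted p from 0.0114 to 0.0499. H2AK119ub and H3K27me3 were thus both lower in double cells over this gene.

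At the gene end no member was called between double and CSF3R T618I for H2AK119ub, while 9.32% of all tested genes were called in either direction and 4 members had an unadjusted p under 0.05. The lowest differences were at Kcnab2 (-29.8 points, limma, adjusted p = 0.114) and Kcnh4 (-18.3, adjusted p = 0.106), and the highest at Kcnh1 (18.4, adjusted p = 0.107) and Kcnj12 (25.5, adjusted p = 0.294). Kcnab2, a beta subunit also present in blood cells, had 15% and 2.0% in double, 22.0%, 56.5% and 36.5% in CSF3R T618I, 0% in all 3 Asxl1 guide and 44.0% and 16% in control libraries. It had no H3K27me3 peak at the gene end in any library. Without CSF3R T618I replicate 1, 2 members were called lower (11.5% of all tested genes), and without double replicate 2, 2 were called higher (5.08%).

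Kcnj12 (chr11:61022564-61073269), an inward rectifier of muscle, was the only member called between double and control for H2AK119ub, and it was higher in double (1 of 33, beside 5.02% of all tested genes). Its gene end had 95.1% and 55.6% in double and 16.5% and 12% in control libraries, against 70.5%, 38.0% and 41.0% in CSF3R T618I and 31.0%, 7.5% and 42.0% in Asxl1 guide libraries. Double and control libraries were separate, but the double libraries lay far apart. The Kcnj12 call was lost in a 4 kb window, with only peaks of at least 500 bp, and with total peak length as a covariate. The difference was 61.1 points (SE 15.6, limma, adjusted p = 0.0497), in the member window with the most IgG background, 18% of its length. With peaks that overlap IgG peaks removed it became -11.7 points (adjusted p = 0.680), with no filter its adjusted p was 0.111, and it stayed called only without CSF3R T618I replicate 1 or double replicate 2, with adjusted p up to 0.197 otherwise.

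Between double and Asxl1 guide, 32 of 33 H2AK119ub differences were above 0 (97%, beside 82.3% of all tested genes; median 9.83 points, against 9.41 over all tested genes), and none was called, while 7 had an unadjusted p under 0.05 and 10.6% of all tested genes were called in either direction. The highest were at Kcnj12 (48.5 points, limma, adjusted p = 0.0617) and Kcnh3 (30.9, adjusted p = 0.108), and the lowest at Kcnk3 (-4.42, adjusted p = 0.705) and Kcnk9 (0.667, adjusted p = 0.973). Without double replicate 2, 7 members were called higher, 21.2% of the 33, beside 21.6% of all tested genes. Without CSF3R T618I replicate 1 it was 1 member, beside 11.2%.

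CSF3R T618I and control did not differ past the test at any member for H2AK119ub, while 0.248% of all tested genes were called in either direction. At the looser limit of an unadjusted p under 0.05 (limma) there were 3 members. Kcnn1 (-11.7 points, limma, adjusted p = 0.278) was lowest, and Kcnn3 (19.9, adjusted p = 0.429) and Kcnj12 (35.6, adjusted p = 0.297) highest. Without CSF3R T618I replicate 1 there was 1 higher call, beside 3.07% of all tested genes. The interaction was called at no member, with 1 at an unadjusted p under 0.05 and 0.217% of all tested genes called.

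The gene bodies gave no H2AK119ub call for CSF3R T618I against control (limma; 4 members at an unadjusted p under 0.05, 0.982% of all tested genes called), double against Asxl1 guide (6 members, 7.99%), double against control (4 members, 5.99%) or the interaction (3 members, 0.643%). The largest differences were at Kcnj11 (31.4 points, limma, adjusted p = 0.728) and Kcna3 (30.6, adjusted p = 0.388) in CSF3R T618I against control. Kcna3 was also 30.2 points higher in double than in control (limma, adjusted p = 0.284), and Kcnk4 20.5 points lower (adjusted p = 0.0809). Without double replicate 2, 6 of 28 bodies were called higher between double and Asxl1 guide, beside 20.5% of all tested genes. The Kcna3 body, marked by H3K27me3 mainly in CSF3R T618I cells, was covered by H2AK119ub in all: 98.5% and 90.9% in double, 96.0%, 96.0% and 93.4% in CSF3R T618I, 85.8%, 88.4% and 85.8% in Asxl1 guide and 90.9% and 38.1% in control libraries. Control replicate 2 stood well below the other 9 libraries there.

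H3K4me1 was rare at these genes, and few members had it. It was found at the gene end of 17 members in any library, and only Kcnip3, Kcnn4, Kcng2 and Kcne3 were tested. A gene end at 20% or more was found for 2 members in double, 4 in CSF3R T618I, 3 to 4 in Asxl1 guide and 4 in control libraries, on average 2.20%, 4.40%, 3.66% and 4.40% of the members against 7.01%, 8.42%, 6.89% and 7.36% of all genes.

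Kcnip3 gave the smallest adjusted p of the family. H3K4me1 covered 17.0% and 11.5% of its gene end in double, 28.5%, 46.0% and 53.5% in CSF3R T618I, 79.0%, 72.0% and 76.5% in Asxl1 guide and 68.5% and 77.0% in control libraries. Double libraries were the lowest, CSF3R T618I libraries lay between, and Asxl1 guide and control libraries overlapped at the top. Double was 61.6 points below Asxl1 guide (limma, adjusted p = 0.000631) and 58.5 points below control (SE 7.50, limma, adjusted p = 0.00179), and 28.4 points below CSF3R T618I (limma, adjusted p = 0.0290). CSF3R T618I was 30.1 points below control (SE 6.85, limma, adjusted p = 0.0267).

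The mark at Kcnip3, whose start-site bases are shown above, also differed in width. The widest H3K4me1 peak in the window measured 1700 and 1150 bp in double, 2850, 3200 and 3900 bp in CSF3R T618I, 7900, 7200 and 7650 bp in Asxl1 guide and 4800 and 7700 bp in control libraries. The window also holds part of Prom2, and H3K27me3 covered none of it in any library. H2AK119ub covered 18% and 3.0% of it in double and 4.0%, 12% and 3.0% in CSF3R T618I libraries, and none in Asxl1 guide or control libraries.

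Over the Kcnip3 body, H3K4me1 was likewise lower in double, at 3.9% and 4.5%, than in Asxl1 guide at 13.0%, 12.3% and 12.9% (-8.53 points, SE 1.81, limma, adjusted p = 0.0181) and in control at 11.1% and 13.2% (-7.96 points, SE 1.98, limma, adjusted p = 0.0309). CSF3R T618I libraries had 4.3%, 7.2% and 8.5%, overlapping double. The body calls were 1 of 4 tested members in each comparison, beside 9.31% and 10.4% of all tested genes lower. With peaks that overlap IgG peaks removed, the Kcnip3 body was no longer tested.

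Kcng2 showed the same order at its gene end. H3K4me1 covered 18.5% in both double libraries, 23.5%, 24% and 38.0% in CSF3R T618I, 45.0%, 38.0% and 38.0% in Asxl1 guide and 40.0% and 45.0% in control libraries. Double was 21.9 points below Asxl1 guide (SE 5.03, limma, adjusted p = 0.0160) and 24 points below control (SE 5.51, limma, adjusted p = 0.0168). With Kcnip3 that made 2 of 4 tested members lower in each of these comparisons, beside 9.79% and 11.2% of all tested genes. In the comparisons of double with CSF3R T618I and of CSF3R T618I with control, Kcnip3 was 1 of 4, beside 10.5% and 1.85%. Kcng2 was the only member tested for all 3 marks at the gene end, and in double cells its means were 21.8% for H3K27me3, 48.5% for H2AK119ub and 18.5% for H3K4me1. H3K4me1 peaks covered at most 0.584% of the Kcng2 body in any library and 0% in double, where the mark thus lay outside the gene. The strand of Kcng2 was not known from the tables used, so this end may not hold its start. Whether the 3 marks overlap within the window was not tested.

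**Figure D5:**
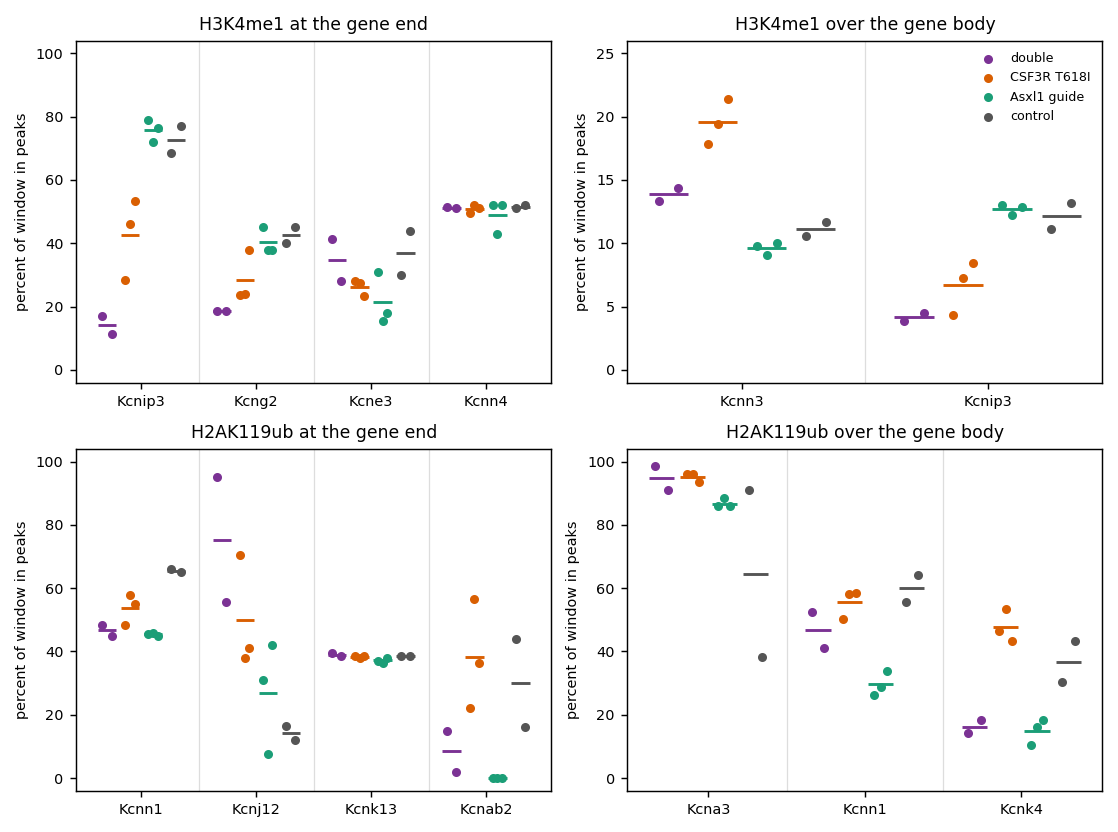
Percent of the gene end or gene body in H3K4me1 and H2AK119ub peaks for the members named in the text; dots are libraries and bars are means, with double, CSF3R T618I, Asxl1 guide and control cells from left to right. H3K4me1 at Kcnip3 is lowest in the double libraries (17.0% and 11.5%) and highest in Asxl1 guide and control libraries.

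The Kcnip3 calls of double against Asxl1 guide and against control at the gene end were kept in each of the 10 fits that left out a library, with adjusted p of at most 0.00769 and 0.0224. The call of double against CSF3R T618I was lost without CSF3R T618I replicate 2 or 3 or either double library (adjusted p up to 0.171), and that of CSF3R T618I against control without either control library (up to 0.193). For Kcng2 the call against Asxl1 guide was lost without either double library (up to 0.0799), and the call against control without either double or either control library (up to 0.103). In a 4 kb window Kcng2 was called in neither (limma, adjusted p = 0.0791 and 0.0614), nor Kcnip3 in double against CSF3R T618I (0.154). That Kcnip3 call was also lost with no filter (adjusted p = 0.0586) and with total peak length as a covariate (0.0568), and the call of CSF3R T618I against control with no filter (0.0604). Over the Kcnip3 body the call against Asxl1 guide was lost without Asxl1 guide replicate 1 or 3 or double replicate 1 (up to 0.0735), and against control without either control or double library or Asxl1 guide replicate 1 or 3 (up to 0.174).

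Kcnn4, the calcium-opened channel of blood cells, carried H3K4me1 at an even level: 51.6% and 51.0% in double, 49.5%, 52.0% and 51.1% in CSF3R T618I, 52.1%, 43.0% and 52.1% in Asxl1 guide and 51.1% and 52.1% in control libraries. It had no H3K27me3 peak at the gene end in any library. It had H2AK119ub peaks there in only 3, 1 of double cells (2.0%) and 2 of CSF3R T618I cells (13.5% and 6.0%). Kcne3, a single-pass accessory subunit, had 41.5% and 28.0% in double, 28.0%, 27.5% and 23.5% in CSF3R T618I, 31.0%, 15.5% and 18% in Asxl1 guide and 30% and 44.0% in control libraries. Neither gene was called in any comparison. Asxl1 guide and control did not differ at any of the 4 tested members (limma, adjusted p of 0.501 at Kcne3 and 1 at Kcnn4, Kcng2 and Kcnip3, with 0.43% of all tested genes called). An unadjusted p under 0.05 (limma) was found for 1 of the 4, beside 206 of all 2328 tested genes. The interaction was called at none of the 4 and at 1.63% of all tested genes. Its unadjusted p (limma) was under 0.05 for 2 members, beside 343 of all 2328 tested genes.

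Kcnn3 (chr3:89520164-89672494), another small-conductance channel, rose in H3K4me1 over the gene body in CSF3R T618I cells. It had 17.8%, 19.4% and 21.4% in CSF3R T618I and 10.6% and 11.7% in control libraries, against 13.4% and 14.4% in double and 9.7%, 9.1% and 10.0% in Asxl1 guide libraries. The CSF3R T618I libraries were above all others, by 8.44 points over control (SE 1.70, limma, adjusted p = 0.0226), 1 of 4 tested members beside 6.53% of all tested genes. With peaks that overlap IgG peaks removed the difference was -0.175 points (adjusted p = 0.992), and the call was also lost without either control library, Asxl1 guide replicate 3 or CSF3R T618I replicate 2 or 3 (adjusted p up to 0.165). At the Kcnn3 gene end, on the start side of its strand, H3K27me3 covered 27.5% and 9.5% in double and 61.5%, 57.5% and 73.5% in CSF3R T618I libraries. It covered 5.5%, 61.6% and 2.5% in Asxl1 guide and 17.0% and 62.1% in control libraries, and was not called. No body was called for H3K4me1 in Asxl1 guide against control (limma, 0 at an unadjusted p under 0.05, 0.0854% of all tested genes called), double against CSF3R T618I (1 at an unadjusted p under 0.05, 10.5%) or the interaction (1, 1.15%). Of all 2342 tested genes, 176, 652 and 304 met that unadjusted limit in the same order of comparisons.

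The members known from blood and immune cells were not alike. Kcnk6 and Kcnn4 had no H3K27me3 peak at the gene end in any library. Kcnk13, with the values given above, had one in every library, and Kcna3 had them over its body mainly in CSF3R T618I cells. Kcnj2, the inward rectifier of muscle, also had no H3K27me3 peak at the gene end. Kcnk6, a leak channel of macrophages, had H3K4me1 over 0% and 7.0% in double, 0%, 13.5% and 10.0% in CSF3R T618I, 4.5%, 5.0% and 5.0% in Asxl1 guide and 0% and 5.0% in control libraries. Kcnj2 had H3K4me1 in 3 libraries, at 5.0% and 2.5% in double and 3.5% in 1 of CSF3R T618I. Kcnma1, the large-conductance channel opened by calcium and voltage, had H3K27me3 over 0% in both double, 15.5%, 19.0% and 38.5% in CSF3R T618I, 0%, 12% and 0% in Asxl1 guide and 24.5% and 12.5% in control libraries, with no call. Kcnh2 had 73.7% and 59.5% in double, 89.2%, 89.2% and 83.7% in CSF3R T618I, 27%, 77.5% and 49.5% in Asxl1 guide and 82.7% and 79.7% in control libraries, and with H2AK119ub at 53.5% to 75.2% in every library it was one of the most marked members.

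Other ion channel genes were read in the same way for comparison. Of 13 partners and relatives of potassium channels 8 were tested for H3K27me3 at the gene end, and in double against CSF3R T618I 1 fell, Hcn3, a pacemaker channel (-55.9 points, limma, adjusted p = 0.0120), which had also risen in CSF3R T618I against control (45.4 points, adjusted p = 0.0385). Among 7 tested sodium channel subunits 2 fell in double cells, Scn2b and Scn8a, and among 20 tested calcium channel subunits 6 fell, none rising, beside the 22.8% of all tested genes that fell there. For H2AK119ub, Hcn2 (-41.3 points, limma, adjusted p = 0.0222) and Amigo1 (-19.1, adjusted p = 0.0498) fell in Asxl1 guide against control, of 5 tested partners, beside 7.43% of all tested genes. No difference between these lists and the potassium channels was tested.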

How the data were processed

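CUT&Tag peak lists of 3 marks in 4 genotypes were used, 10 libraries per mark, with 1 list from 2 merged IgG libraries. The deposited values are of another kind than counts or signal: the authors' files hold the start and end of each peak in bp and nothing on its height or reads. Reads were aligned with Bowtie2 2.4.1 and deepTools 3.5 was used, on mm10, per the submitters' processing notes; which peak caller made the lists, and with what cut-off, is not given in the sources used here. Depth is therefore unknown, no counting interval can be given, and a longer list can come from deeper sequencing.

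From these positions the percent of each gene end (10 kb) and gene body in peaks was computed for 21883 protein-coding genes of GRCm38.p6. The end with the higher mean over all 30 libraries was used, left in a tie. Gene ends at 20% or more, or bodies at 10% or more, in at least 2 libraries were fitted with limma 3.58.1 (R 4.3.3) with 1 mean per genotype, 2-sided, and p was adjusted by Benjamini-Hochberg over all tested genes of a mark, window and comparison. Other steps ran in Python 3.11.15 with pandas 2.3.3 and numpy 2.4.6, and figures were drawn with matplotlib 3.10.9. On simulated data for double against CSF3R T618I at H3K27me3 gene ends (3713 genes), 24 of 108 shifts of 0.3 of the window and 66 of 92 of 0.6 were called, with 5 of 3513 unshifted genes.

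Strand and promoter sequence came from RefSeq tables for 67 of 91 members. Named genes were the members called in a comparison, the 2 highest and 2 lowest differences where none was called, the 8 with the highest mean per mark, and Kcnn4, Kcna3, Kcnj2, Kcnk6, Kcnk13, Kcnh2, Kcnab2 and Kcnma1. Kcna2, Kcnn3 at H3K27me3 and Kcnj10 and Kcnj9 in CSF3R T618I against control were added after their values were seen. Single-gene values of some members that this rule takes in are not reported here, though the counts and medians include those members. The members and lists were chosen with earlier results of these data known. The alternatives were a 4 kb window, the outer end on the start side as gene end, and a gene body with 5 kb each side. Others were removal of peaks that overlap IgG peaks or of peaks under 500 bp, no filter, and total peak length as a covariate. The replicate number as a block and leaving out each library were also used.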

Additional observations from a re-analysis of the deposited data

How the results depend on the processing

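Values here are numbers of potassium channel genes called with limma at an adjusted p under 0.05. Of 29 calls by mark, window and comparison, 5 were kept in every other setting that tested them and 3 in every fit that left out 1 library. Of the 5, both Kcnip3 body calls were not tested once peaks that overlap IgG peaks were removed. The 3 were Kcnip3 (H3K4me1, gene end) in double against Asxl1 guide and against control, and Kcnk4 (H2AK119ub, body) in double against CSF3R T618I. Where 1 library was left out, a group of 1 was assumed to vary like the other groups. Causes of the changes below were not tested. The depth of the libraries is unknown, and a stretch with no peak is not shown to lack the mark.

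For H3K27me3 gene ends, leaving out 1 library gave 0 to 11 calls in Asxl1 guide against control (0 with all), 0 to 10 in CSF3R T618I against control (2), 0 to 30 in double against CSF3R T618I (7) and 0 to 2 in double against Asxl1 guide (0). For its bodies the ranges were 0 to 3 in Asxl1 guide against control, 0 to 8 in CSF3R T618I against control, 0 to 14 in double against CSF3R T618I, 0 to 1 in double against Asxl1 guide and 0 to 1 for the interaction. For H2AK119ub gene ends they were 0 to 2 in Asxl1 guide against control, 0 to 1 in CSF3R T618I against control, 0 to 2 in double against CSF3R T618I, 0 to 7 in double against Asxl1 guide, 0 to 3 in double against control and 0 to 1 for the interaction. For its bodies they were 0 to 3, 0 to 1, 1 to 4, 0 to 6, 0 to 2 and 0 to 2 in that order. For H3K4me1 gene ends they were 0 to 2 in CSF3R T618I against control, 0 to 1 in double against CSF3R T618I, 1 to 2 in double against Asxl1 guide, 1 to 2 in double against control and 0 to 1 for the interaction, and for its bodies 0 to 1 in CSF3R T618I against control, double against Asxl1 guide and double against control.

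With total peak length as a covariate, H3K27me3 gene ends gave 4 calls in Asxl1 guide against control, 5 in CSF3R T618I against control, 11 in double against CSF3R T618I, 2 in double against control and 1 for the interaction, and its bodies 1 each in Asxl1 guide against control, double against control and the interaction. H2AK119ub gave 0 in Asxl1 guide against control and 2 in double against CSF3R T618I at gene ends, and 2 in double against CSF3R T618I and 1 in double against control over bodies, and H3K4me1 gave 0 in double against CSF3R T618I at gene ends.

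With no filter, H3K27me3 gave 5 gene ends and 4 bodies in CSF3R T618I against control, and 4 gene ends in double against CSF3R T618I. H2AK119ub gave 2 gene ends in double against Asxl1 guide, and over bodies 1 in Asxl1 guide against control, 1 in CSF3R T618I against control, 3 in double against CSF3R T618I, 1 in double against Asxl1 guide, 2 in double against control and 1 for the interaction. H3K4me1 gave 0 gene ends in CSF3R T618I against control and in double against CSF3R T618I, and over bodies 3 in CSF3R T618I against control, 2 in double against CSF3R T618I, 5 in double against Asxl1 guide and 3 in double against control.

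With a 4 kb window there was 1 H3K27me3 call in CSF3R T618I against control; H2AK119ub gave 0 in Asxl1 guide against control, 1 in double against Asxl1 guide and 0 in double against control; and H3K4me1 gave 0 in double against CSF3R T618I and 1 each in double against Asxl1 guide and against control. With 5 kb added to each side of the body, H3K27me3 gave 0 in CSF3R T618I against control and H2AK119ub 1 each in double against Asxl1 guide and against control. With peaks that overlap IgG peaks removed, H3K27me3 gave 1 gene end in CSF3R T618I against control, H2AK119ub 0 gene ends in Asxl1 guide against control and in double against control and 1 body in Asxl1 guide against control, and H3K4me1 1 gene end each in double against Asxl1 guide and against control and 0 bodies in CSF3R T618I against control, double against Asxl1 guide and double against control. There Kcnj12 (H2AK119ub, gene end, double against control) turned to -11.7 points and Kcnn3 (H3K4me1, body, CSF3R T618I against control) to -0.175. Called genes that no longer passed the filter there (among them Kcng2, Kcnh2, Kcnk12, Kcnn1 and Kcnip3, in some windows) have no value in that setting. With peaks of at least 500 bp, H2AK119ub gave 0 gene ends in double against control.

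The labels share replicate numbers, which were not taken to pair the libraries because not every same-numbered pair correlated over 0.1. That rule does not exclude a pairing. Correlations of same-numbered libraries ran from -0.29 to 0.18 for H3K27me3 gene ends and from -0.12 to 0.06 for H2AK119ub. For H3K4me1 gene ends they ran from -0.111 to 0.395, with 9 of 13 over 0.1 and a median of 0.148. Over H3K4me1 bodies 8 of 13 were over 0.1. Different numbers had a median of -0.148 at gene ends. In a genotype with 2 libraries the deviations from the mean are mirror images. The 13 same-numbered pairs are therefore not all separate, and this -0.148 is not an independent comparison. With the replicate number as a block (a replicate block), H3K27me3 gave 0 gene ends and 0 bodies in CSF3R T618I against control, and 0 gene ends and 1 body in double against CSF3R T618I. H2AK119ub gave 0 gene ends and 0 bodies in Asxl1 guide against control and 1 gene end in double against Asxl1 guide, and H3K4me1 gave 0 gene ends in double against CSF3R T618I, where Kcnip3 was called without it (adjusted p = 0.0611 with the block).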

Other observations

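H2AK119ub was on average highest in double cells at some members that were not called, as in the mean of the family. H2AK119ub at Kcnq5, a subunit of the M-current, covered 27% and 23% of the gene end in double, 16%, 17.5% and 16.5% in CSF3R T618I, 7%, 13.5% and 15.5% in Asxl1 guide and 13% and 12.5% in control libraries. Both double libraries were above all others at Kcnq5, which had no H3K27me3 peak at its gene end. Kcnh1, a voltage-gated channel of the brain, had H2AK119ub over 42% and 21.5% in double, 13%, 16% and 11% in CSF3R T618I, 16%, 21.5% and 25% in Asxl1 guide and 11% and 4% in control libraries, and double overlapped Asxl1 guide. Neither Kcnq5 nor Kcnh1 was called in any comparison with limma, and both were picked after their values were seen.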
